A study of Homo sapiens with 6 samples.

Results

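Of the 47 genes described here, 4 belong to IL-6 signalling (IL6R, IL6ST, STAT3 and SOCS3), and the others encode complement components, their regulators and plasma proteins of the hepatic acute phase response. They were picked by symbol from the 50868 genes of the deposited table. SERPINA3 stood in 2 rows with different gene IDs, so the 47 genes gave 48 rows. Of these, 41 rows passed the filter on low counts and were tested, and a gene could pass that filter through 1 group alone. The other 7 (C4A, C4B, CRP, ITIH4, LBP, SAA1 and SAA2) had too few counts and are given as counts.

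RNA was sequenced from Huh7 cells, an established human hepatoma cell line that secretes many hepatocyte plasma proteins. Cells of the overexpression group (R-98181) carried a PLC5-CIR plasmid with hsa_circ_0098181, a circular RNA whose host gene is SOX5, and cells of the control group (R-NC) carried the control plasmid. Both plasmids were delivered with a Lipofectamine reagent in a transient transfection, and total RNA was taken 48 h later from 3 samples of each group. The labels name no cytokine, and a hepatoma line in culture has none of the macrophages that feed IL-6 to hepatocytes in the liver. The comparison asks which transcripts differ when the circular RNA is in excess.

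Complement is a cascade of plasma proteases, most of them made by hepatocytes. The classical and lectin pathways cleave C4 and C2, the alternative pathway uses factor B, all of them converge on C3, and C5 to C9 then build the membrane attack complex that CD59 and other regulators hold back. In the acute phase response, IL-6 binds IL6R and its signal-transducing partner IL6ST (gp130), JAK kinases phosphorylate STAT3, and STAT3 with C/EBP factors switches on CRP, SAA1, SAA2, HP and other plasma protein genes until SOCS3 shuts the receptor off.

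Library totals ran from 11130902 to 14138262 counts. SOX5, the host gene, was counted 26907, 33577 and 24906 times in the overexpression libraries and 453, 404 and 380 times in the control libraries, a log2 fold change of 5.88 ± 0.16 (SE, n = 3 per group; edgeR quasi-likelihood test, adjusted p = 2.6e-06). SOX5 reads of the circle and of the linear transcript cannot be told apart in a table of gene counts. Mitochondrial transcripts took 9.30% of the counts of control 1 and 6.32% to 7.04% of the others. All 11 hepatocyte markers were tested, AFP and ALB were abundant, and 1 marker, APOB, had an unadjusted p under 0.05 (log2 fold change -0.39, edgeR adjusted p = 0.797). Of 12 markers of other liver cells 6 had enough counts to test, and none had an unadjusted p under 0.05. Of the endothelial markers among them, PECAM1 averaged 54.9 CPM with overexpression and 53.7 CPM in controls, whereas STAB2 was at 0 counts in every library and VWF at 0 or 1. Of the leukocyte and macrophage markers, CD68 averaged 8.53 CPM with overexpression and 9.32 CPM in controls. CD14 averaged 2.39 and 2.16 CPM and PTPRC 1.42 and 1.00 CPM, in the same order, and CD163 had 0 or 1 counts per library. The other markers tested were COL1A2 and LUM, of stellate cells and fibroblasts. The replicates are given as numbers only, so p-values measure the spread between these samples, which may be technical.

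The study links hsa_circ_0098181 to the microRNA miR-18a-3p, so the 3′ UTRs of the genes were searched for its seed match. The mature sequence of miR-18a-3p (RefSeq, GRCh38.p14, chr13:91350797-91350819, plus strand) is printed 5′ to 3′ with the seed, bases 2 to 8, in capitals, followed by the 4 genes whose 3′ UTR holds the complementary heptamer AGGGCAG, in capitals within its neighbouring bases. The sites lie at chr9:136946897-136946903 (plus strand) in C8G, chr11:33707102-33707108 (minus strand) in CD59, chr11:18269902-18269908 (plus strand) in SAA1 and chr17:78357052-78357058 (minus strand) in SOCS3, all in GENCODE 29 annotation of GRCh38.
hsa-miR-18a-3p: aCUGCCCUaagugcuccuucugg
C8G: ccctgccacccAGGGCAGgggatcttctg
CD59: tcattgtgatgAGGGCAGctttctggtac
SAA1: gtgaggccctcAGGGCAGggatacaaagc
SOCS3: ttgggctggacAGGGCAGttgtgtgttgg
Of the 40 tested rows with an annotated 3′ UTR, 3 held the heptamer (7.5%), against 2042 of 12408 tested genes (16.5%). The median 3′ UTR was 285 bases in the former and 997 bases in the latter. The log2 fold changes of the 3 genes were 0.77 for C8G, 0.58 for SOCS3 and -0.17 for CD59, and none passed the test. SAA1 had too few counts for a test.

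Promoter windows from RefSeq (GRCh38.p14, 250 bases before to 50 after a transcript start) were found for 34 of the 47 genes and searched on both strands for 3 motifs. The STAT motif TTCNNNGAA lay in 20.0% of the 50 windows of these genes and in 7.66% of all 35116 windows. For the C/EBP motif TTGCNNAA the shares were 22.0% and 10.5%, and for a motif of the hepatocyte factor HNF1 they were 4.0% and 0.322%. The HNF1 matches were in C4BPA and C5. The 250 bases before the start are printed for 1 gene without a read and for 2 abundant genes, to show sequences at both ends of the range of levels, with motif matches in capitals. The RefSeq starts of VTN and AHSG lie inside the longer gene models of the deposited table.
CRP, chr1:159714590-159714839, minus strand: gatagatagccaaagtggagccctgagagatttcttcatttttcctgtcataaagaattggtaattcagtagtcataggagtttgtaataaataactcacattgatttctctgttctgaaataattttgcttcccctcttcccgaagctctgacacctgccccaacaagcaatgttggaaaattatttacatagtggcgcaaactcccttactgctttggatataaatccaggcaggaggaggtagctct
VTN, chr17:28370308-28370557, minus strand: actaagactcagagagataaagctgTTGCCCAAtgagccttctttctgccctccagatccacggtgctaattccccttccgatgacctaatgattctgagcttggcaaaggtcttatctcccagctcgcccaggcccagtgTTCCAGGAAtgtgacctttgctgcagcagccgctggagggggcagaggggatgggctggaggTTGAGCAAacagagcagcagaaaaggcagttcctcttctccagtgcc
AHSG, chr3:186612810-186613059, plus strand: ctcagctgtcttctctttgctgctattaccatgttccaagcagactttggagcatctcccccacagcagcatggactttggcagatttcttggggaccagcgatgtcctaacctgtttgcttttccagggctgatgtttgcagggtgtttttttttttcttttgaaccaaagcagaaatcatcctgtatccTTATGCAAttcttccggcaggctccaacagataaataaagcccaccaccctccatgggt
The window of CRP held none of the 3 motifs. That of VTN held the STAT match TTCCAGGAA and the C/EBP matches TTGCCCAA and TTGAGCAA, and that of AHSG held the C/EBP match TTATGCAA. The matches TTGAGCAA and TTATGCAA lie on the strand opposite to the one shown. A match is a run of letters and not a measured binding site, and a window without one may hold a site with other letters or spacing. Matches also lay in windows of genes with few counts, such as C1R and MASP2 for STAT and C6 and SAA4 for C/EBP. The 3 windows printed therefore do not show that motifs go with level.

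The genes spanned a wide range of levels. Levels are given as CPM, the count scaled to a common library size with TMM factors, and between genes as CPM per kb of merged exon length. Together the 48 rows held 0.863% to 1.05% of the counts of a library, and AHSG, SERPINA1, AMBP, ITIH2 and C3 made up 72.3% of that. Means above 100 CPM were reached by 13 rows, and 16 rows stayed under 2 CPM.

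**Figure D1:**
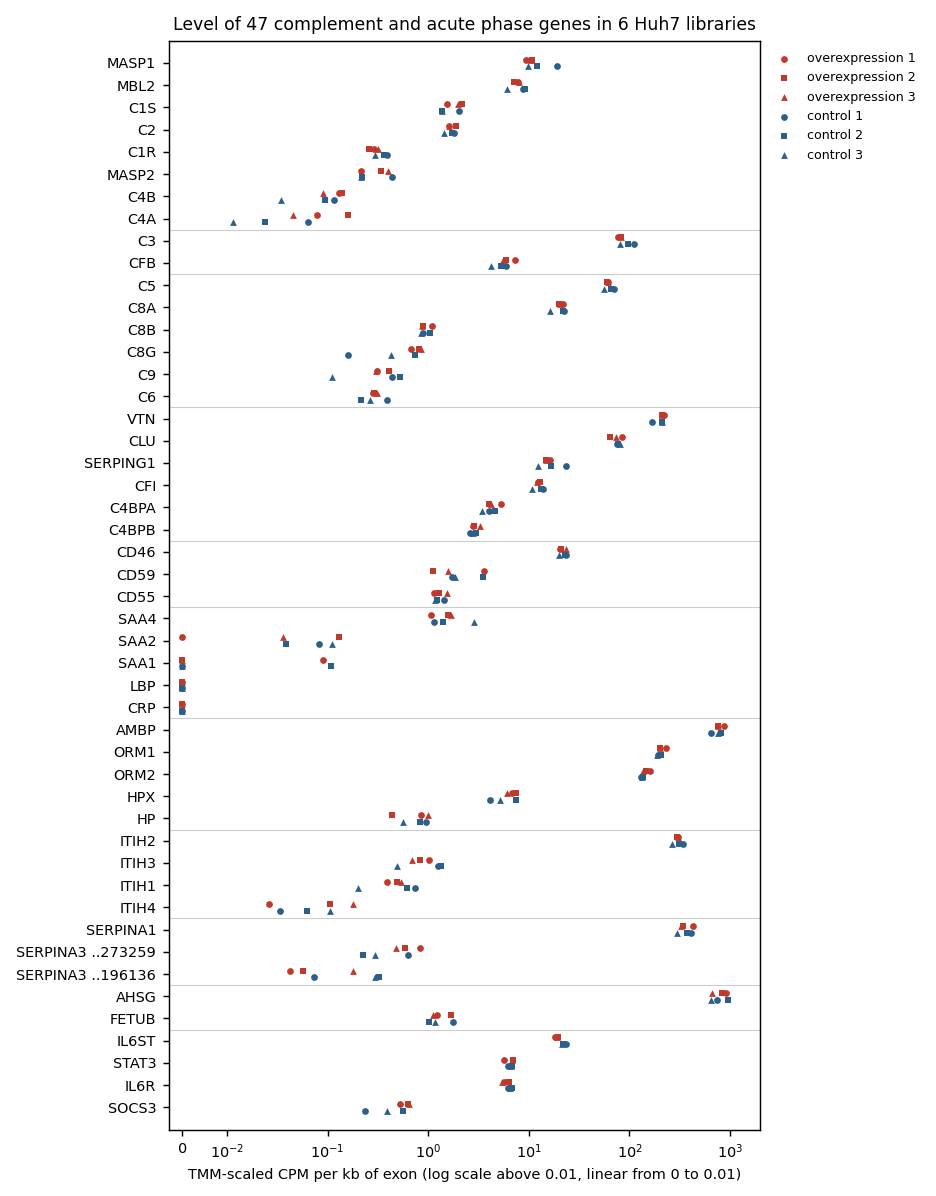
Level of each gene in the 6 libraries, in TMM-scaled CPM per kb of exon on a log axis that turns linear below 0.01, with genes grouped by role and the overexpression (red) and control (blue) libraries as separate symbols. AHSG, AMBP, SERPINA1 and ITIH2 lie at the right end, CRP and LBP lie at 0, and the libraries of a gene lie much closer together than the genes do.

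Among the initiators, the lectin pathway genes MASP1, a mannose-binding lectin protease, and MBL2, the lectin itself, were the highest per kb, with means of 11.9 and 7.77 CPM per kb. MASP1 exceeded MASP2, the other lectin pathway protease, by a median of 43.8 times per kb (range 26.3 to 54.2 over 6 libraries). C1S, a protease of the C1 complex, exceeded its partner C1R by a median of 5.22 times (3.75 to 8.50). C2 stood at 1.68 CPM per kb. The 2 genes of C4, the substrate of both pathways, were near the floor of detection. C4A had 1 to 16 counts and C4B 3 to 14 counts per library. Their low counts depend on how reads shared by these near-identical copies were handled. C4A also shares 303 exon bases with STK19, which had 417 counts against 36 for C4A.

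C3, the common substrate of all pathways, averaged 88.1 CPM per kb and exceeded CFB, which encodes the factor B protease of the alternative pathway, by a median of 16.6 times (10.5 to 19.0). C3 also exceeded C5 in 6 of 6 libraries on this scale, by a median of 1.40 times (1.25 to 1.58). With the deposited FPKM values, which use other gene lengths, it did so in 3 of 6, so the order of C3 and C5 is not settled. The later terminal components were uneven, C8A averaging 20.4 CPM per kb and C6, C8B, C8G and C9 between 0.290 and 0.932. C5 exceeded C6 by a median of 212 times (179 to 302) and C9 by 178 times (125 to 505). C8A exceeded C8B by a median of 21.7 times (19.1 to 25.5) and C8G by 30.9 times (24.0 to 140), the highest of these coming from control 1 with 2 counts of C8G. With the deposited FPKM the median of C8A over C8G was 52.3 (40.7 to 237).

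Among the secreted regulators, VTN (vitronectin) and CLU (clusterin), both inhibitors of membrane attack complex assembly, averaged 204 and 75.9 CPM per kb. SERPING1, the C1 inhibitor, and CFI, the protease that inactivates C3b and C4b, averaged 16.4 and 12.6. Of the chains of C4b-binding protein, C4BPA exceeded C4BPB by a median of 1.47 times (1.22 to 1.88), or 1.92 times (1.59 to 2.45) with the deposited FPKM. Of the membrane regulators, CD46, the cofactor of factor I, exceeded CD55, the decay-accelerating factor, by a median of 16.7 times (15.3 to 18.9) and CD59 by 12.2 times (5.68 to 18.7).

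The acute phase genes differed widely in level. CRP, LBP, SAA1 and SAA2 were undetected or near the floor at this depth. CRP and LBP, the genes of C-reactive protein and lipopolysaccharide-binding protein, had 0 counts in all 6 libraries, which at 3 counts allows up to 0.212 to 0.277 CPM depending on the library. This limit covers counting error only. SAA1 was counted 1, 0 and 0 times in the overexpression and 0, 1 and 0 times in the control libraries, and SAA2 0, 4 and 1 times against 2, 1 and 3 times. SAA4, the constitutive serum amyloid A gene, averaged 1.17 CPM.

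Some carriers and inhibitors were abundant and others were low. AMBP, the precursor of alpha-1-microglobulin and bikunin, averaged 768 CPM per kb, and the orosomucoid genes ORM1 and ORM2 averaged 203 and 141. HPX (hemopexin), which binds haem, exceeded HP (haptoglobin), which binds haemoglobin, by a median of 8.57 times per kb (4.33 to 17.2). Of the inter-alpha-trypsin inhibitor heavy chains only ITIH2 was abundant, at 303 CPM per kb, exceeding ITIH1 by a median of 584 times (470 to 1331), ITIH3 by 323 times (231 to 545) and ITIH4 by 3904 times (1698 to 11633). Of the exon bases of ITIH4 73.6% are shared with RP5-966M1.6, which had 42 counts against 35 for ITIH4, so its level depends on how shared reads were assigned. AMBP, whose bikunin is linked to these chains, exceeded ITIH2 by a median of 2.60 times (1.88 to 2.91). SERPINA1, alpha-1-antitrypsin, averaged 362 CPM per kb, while the rows of SERPINA3, alpha-1-antichymotrypsin, averaged 0.506 and 0.162. AHSG (fetuin A) averaged 795 CPM per kb and exceeded FETUB (fetuin B) by a median of 575 times (421 to 940), or 961 times (704 to 1571) with the deposited FPKM.

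Of the signalling genes, IL6ST exceeded IL6R by a median of 3.24 times per kb (3.04 to 3.75), or 1.71 times with the deposited FPKM. STAT3 averaged 6.50, IL6R 6.16 and SOCS3 0.497 CPM per kb. STAT3 and IL6R overlapped in range, from 5.70 to 6.96 and from 5.41 to 6.85, and their order is not separated by the spread over libraries.

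Between overexpression and control cells, none of the 41 rows passed an adjusted p of 0.05 (edgeR quasi-likelihood test, adjusted over 15055 genes), and DESeq2 also called none. The background was 0.0399% of all genes tested (6 genes), with 0.0266% higher and 0.0133% lower in the overexpression cells. At an unadjusted p under 0.05 there was 1 of the 41, IL6ST, beside 5.5% of all genes (2.42% higher and 3.08% lower), and the groups did not overlap for 1 of the 41, again IL6ST, beside 12.9% of all genes (6.4% higher and 6.5% lower). The log2 fold changes were positive for 21 and negative for 20 rows, with 50.5% of all genes positive. Their median was 0.0091, against 0.0023 over all genes tested, and they ran from -1.36 to 0.77. The lowest adjusted p was 0.797 (edgeR). In bulk RNA, fewer cells that make a transcript and less of it per cell cannot be told apart.

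The 95% intervals give the size of difference these libraries could have held. For 31 of the 41 rows (75.6%) the interval lay wholly within a 2-fold difference either way, against 84.1% of all genes tested. Among genes with a mean of at least 10 CPM it did so for 23 of 24 (95.8%), against 96.3% of 9953 genes, the exception being CD59. The other rows beyond it had means under 10 CPM.

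**Figure D2:**
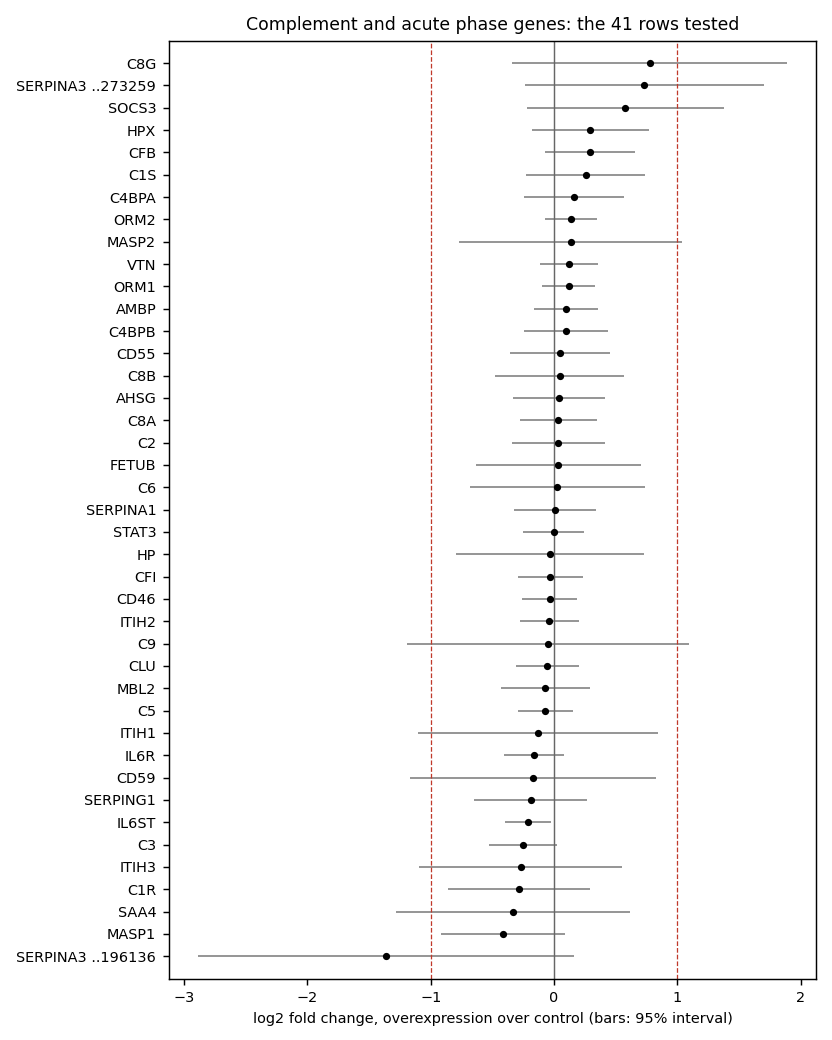
Log2 fold change of overexpression over control for the 41 rows tested, ordered by value, with 95% intervals as bars and dashed lines at a 2-fold difference. The interval of IL6ST is the only one that leaves out 0, and the widest intervals belong to rows with few counts such as SERPINA3 ENSG00000196136, C9 and C8G.

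None of the 5 genes with the highest mean CPM passed the test. This order is by CPM and not per kb, where VTN, ORM1 and ORM2 stood above C3. AHSG was at 2155, 1963 and 1573 CPM in the overexpression libraries and at 1764, 2234 and 1532 CPM in the control libraries. SERPINA1 was at 2094, 1654 and 1585 CPM against 1998, 1832 and 1469 CPM. In both genes the groups overlapped almost completely, and the log2 fold changes were 0.04 ± 0.16 and 0.0091 ± 0.15 (SE, n = 3 per group). AMBP was at 1791, 1532 and 1534 CPM with overexpression and 1318, 1675 and 1550 CPM in controls, a log2 fold change of 0.10 ± 0.11. Control 1 held the lowest value. ITIH2 was at 1019, 991 and 1018 CPM with overexpression and 1161, 1053 and 895 CPM in controls, a log2 fold change of -0.04 ± 0.11. Its overexpression libraries, with 1009 ± 15.6 CPM (SD), lay inside the range of the controls, with 1036 ± 133 CPM.

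C3 was at 639, 678 and 691 CPM in the overexpression libraries and at 919, 806 and 668 CPM in the control libraries. Controls 1 and 2 were above every overexpression library, and control 3 was among them. Group means were 670 ± 27.1 and 797 ± 126 CPM (SD, n = 3). This gave a log2 fold change of -0.25 ± 0.12 (SE), with an interval of -0.53 to 0.02 (edgeR, unadjusted p = 0.068, adjusted p = 0.797). CFB lay the other way, at 36.5, 29.5 and 27.8 CPM against 29.4, 26.4 and 21.1 CPM, with a log2 fold change of 0.29 ± 0.16 and overlapping groups. CFB shares 2249 exon bases with a read-through gene of C2 and CFB, XXbac-BPG116M5.17, which held 71 counts in all libraries. With C2 and CFB summed the log2 fold change was 0.23 (edgeR, adjusted p = 0.796).

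Of the initiators, MASP1 was at 124, 140 and 138 CPM with overexpression and at 251, 157 and 128 CPM in controls. The high control mean of 179 ± 64.2 CPM (SD), beside 134 ± 8.77 CPM, came from control 1. The log2 fold change was -0.41 ± 0.22 (SE), with an interval of -0.92 to 0.09 (edgeR, unadjusted p = 0.093, adjusted p = 0.797). Of the 6 initiator rows tested 3 were positive and 3 negative, with a median of -0.02. C1R shares 672 exon bases with C1RL, which had 2072 counts against 139 for C1R, so the low counts of C1R depend on how shared reads were assigned.

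C4A was counted 8, 16 and 4 times with overexpression and 5, 2 and 1 times in controls, and C4B 13, 14 and 8 times against 9, 8 and 3 times. These 2 genes are near-identical copies, so their sum does not depend on how reads were split between them. Reads dropped for matching both copies would be missing from the sum, and the handling of such reads is not given. The sum was 21, 30 and 12 counts against 14, 10 and 4 counts, a log2 fold change of 0.92 ± 0.49 with overlapping groups (edgeR, unadjusted p = 0.098, adjusted p = 0.796).

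Of the 6 terminal components 4 were positive and 2 negative, with a median of 0.03. C8G, the lipocalin chain of C8, had the highest log2 fold change of the 41 rows, 0.77 ± 0.49, with an interval of -0.34 to 1.89 (edgeR, adjusted p = 0.797). It was counted 11, 13 and 12 times with overexpression and 2, 10 and 6 times in controls. The overexpression libraries were even and the controls uneven, and at 0.892 against 0.510 CPM the values rest on few reads. C9 shares 119 exon bases with DAB2, which had 7162 counts against 77 for C9.

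Of the 6 secreted regulators 3 were positive and 3 negative, from -0.19 for SERPING1 to 0.16 for C4BPA. Of the 3 membrane regulators, CD46 and CD55 had log2 fold changes of -0.03 and 0.05. CD59, which blocks the last step of the membrane attack complex, was at 37.2, 11.6 and 16.3 CPM with overexpression and at 17.7, 36.6 and 19.1 CPM in controls. Overexpression 1 and control 2 were nearly equal and above the remaining 4 libraries. The within-group SD of CD59 was 0.72 on the log2 scale, higher than that of 98.6% of genes with a mean of at least 10 CPM, whereas that of IL6ST was 0.06, higher than 5.22% of them. The median over the 24 such rows was 0.16, against 0.15 over all such genes.

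Of the acute phase carriers, ORM1 was at 210, 182 and 180 CPM against 173, 184 and 169 CPM and ORM2 at 121, 112 and 103 CPM against 98.7, 104 and 102 CPM. Overexpression 1 was highest in both, and the groups overlapped. The ratio of ORM1 to ORM2 ranged only from 1.37 to 1.49 over the 6 libraries. As the 2 genes are closely related, their sum was fitted too and gave a log2 fold change of 0.13 ± 0.09 (edgeR, adjusted p = 0.797). HPX had a log2 fold change of 0.30 ± 0.21 and HP of -0.03 ± 0.33. Summed with the related gene HPR, HP gave 0.06. The 3 heavy chains tested were negative, from -0.27 for ITIH3 to -0.04 for ITIH2. SAA4, the only serum amyloid A gene tested, was counted 11, 16 and 15 times against 9, 12 and 25 times, with a log2 fold change of -0.33 ± 0.41. Control 3 held its highest value, and 65.5% of its exon bases are shared with the read-through gene SAA2-SAA4, which had 1 count.

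SERPINA3 gave the lowest value and 1 of the highest. Row ENSG00000196136 (chr14:94612384-94624055, hg38) was counted 3, 4 and 11 times with overexpression and 4, 19 and 18 times in controls, a log2 fold change of -1.36 ± 0.67. Row ENSG00000273259 (chr14:94592058-94624646) was counted 36, 25 and 18 times against 21, 8 and 11 times, a log2 fold change of 0.73 ± 0.42. The 2 gene models share 1592 exon bases, and libraries high in the one were low in the other. Their sum was 39, 29 and 29 counts against 25, 27 and 29 counts, and its log2 fold change was 0.04 ± 0.23 (edgeR, adjusted p = 0.980). Neither row alone gives the level of SERPINA3.

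In the IL-6 route none of the 4 genes passed the test. IL6ST (chr5:55935095-55994993, hg38, minus strand) was at 170, 180 and 179 CPM in the overexpression libraries and at 215, 202 and 196 CPM in the control libraries. Every control library was above every overexpression library, with means of 204 ± 9.95 and 176 ± 5.24 CPM (SD, n = 3). Its log2 fold change was -0.21 ± 0.08 (SE), with an interval of -0.40 to -0.03 (edgeR, unadjusted p = 0.029, adjusted p = 0.797). A two-sided exact permutation test gave p = 0.1, the smallest that 3 against 3 libraries allow. With 1 library left out the log2 fold change was -0.24 to -0.17, and the unadjusted p of edgeR was above 0.05 in 5 of the 6 fits, with adjusted p from 0.669 to 0.979. It was also above 0.05 with a replicate block (edgeR, unadjusted p = 0.073) and with limma on FPKM (unadjusted p = 0.054). Without a filter the unadjusted p of edgeR was 0.054. An antisense gene that overlaps 8.58% of the exon bases of IL6ST had 0 counts.

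IL6R was at 36.5, 41.1 and 34.9 CPM against 40.0, 44.2 and 41.9 CPM. The groups overlapped, and the log2 fold change was -0.16 ± 0.11 (edgeR, adjusted p = 0.797). STAT3 was at 50.2, 61.4 and 60.3 CPM against 54.1, 59.6 and 58.3 CPM, with a log2 fold change of -0.0013 ± 0.11 and an interval of -0.25 to 0.25. SOCS3, the feedback inhibitor, was counted 20, 24 and 22 times against 7, 18 and 13 times, a log2 fold change of 0.58 ± 0.35 with an interval of -0.22 to 1.38 (edgeR, adjusted p = 0.797). Every overexpression library except the lowest was above the controls in CPM. The difference of STAT3 was below its spread between replicates, and the counts of SOCS3 are low.

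The other 28 genes of IL-6, IL-1 and acute phase signalling, a separate list, gave 25 tested, 13 positive and 12 negative, none past the adjusted threshold. Those with an unadjusted p under 0.05 numbered 3 (all genes 5.5%), and 4 did not overlap between groups (all genes 12.9%). JAK1, the kinase bound to IL6ST, was at 152, 162 and 159 CPM against 199, 172 and 190 CPM, with a log2 fold change of -0.25 ± 0.09 (edgeR, adjusted p = 0.797). CEBPB was at 56.7, 47.2 and 51.3 CPM against 31.1, 44.5 and 42.1 CPM, with a log2 fold change of 0.40 ± 0.15 (edgeR, adjusted p = 0.797). CEBPA, the constitutive hepatocyte C/EBP factor, was at 350, 325 and 329 CPM against 216, 309 and 277 CPM, with a log2 fold change of 0.32 ± 0.13 (edgeR, adjusted p = 0.797). In these 3 genes the groups did not overlap. They are named because they were the 3 with an unadjusted p under 0.05 (edgeR). Of related genes in the list, JAK2 had a log2 fold change of -0.27, TYK2 of 0.04 and CEBPD of 0.04, all with overlapping groups. IL6 itself was counted 2, 11 and 3 times with overexpression and 1, 1 and 0 times in controls, too few to test, and is named after its values were seen.

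**Figure D3:**
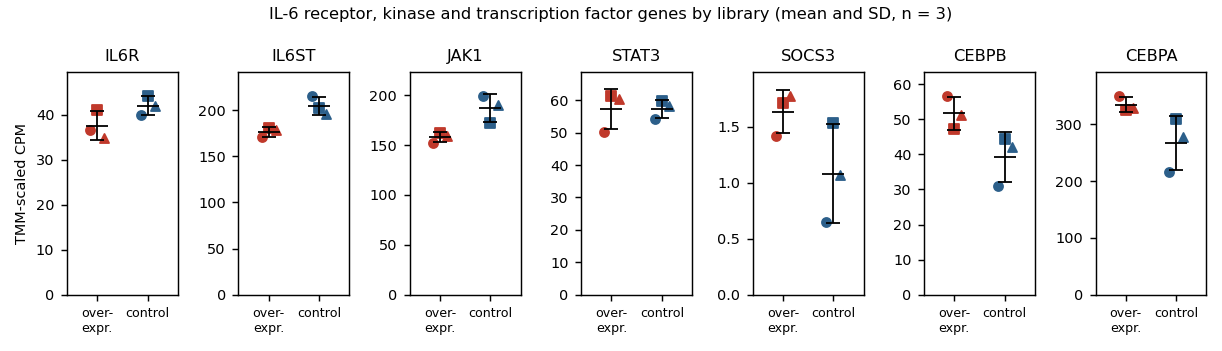
TMM-scaled CPM of 7 genes of the IL-6 route in each library, with the mean and SD of the 3 libraries of a group and axes that start at 0. The overexpression libraries lie below the controls for IL6ST and JAK1 and above them for CEBPB and CEBPA, while STAT3 and IL6R overlap. JAK1, CEBPB and CEBPA are shown because their unadjusted p (edgeR) was under 0.05, so the panels do not stand for the whole list.

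Other acute phase genes and other complement genes were read beside these. Of 20 other acute phase genes 16 were tested, 11 positive and 5 negative with a median of 0.08, and 1 had an unadjusted p under 0.05 (all genes 5.5%, with 50.5% positive). That gene, RBP4, the plasma retinol carrier and a negative acute phase protein, was at 664, 620 and 653 CPM with overexpression and 872, 883 and 837 CPM in controls, a log2 fold change of -0.42 ± 0.08 (edgeR, unadjusted p = 0.000571, adjusted p = 0.506). Its groups were well apart, and it did not pass the test. Of 32 other complement genes 11 were tested, 7 positive and 4 negative with a median of 0.07, and none had an unadjusted p under 0.05. The groups did not overlap for 2 of these 11 (all genes 12.9%), C7 with a log2 fold change of 0.79 and CFD with 0.60, neither past the test, both named after their values were seen.

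Across these genes the control libraries were spread more widely than the overexpression libraries. Control 1 was the highest of the 6 libraries for 14 of the 41 rows (34.1%, against 26.6% of all genes tested), and control 3 was the lowest for 18 (43.9%, against 16.4%). The median deviation of the rows from their mean was 0.15 on the log2 scale in control 1 and -0.19 in control 3, and between -0.01 and -0.0018 in the overexpression libraries. Control 3 was the lowest for all of C5, C8A, C9, CFB, CFI, MBL2, AHSG, SERPINA1 and ITIH1 to ITIH3, among others. Over the 11 hepatocyte markers its median deviation was -0.04, and it was the lowest for 3.

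**Figure D4:**
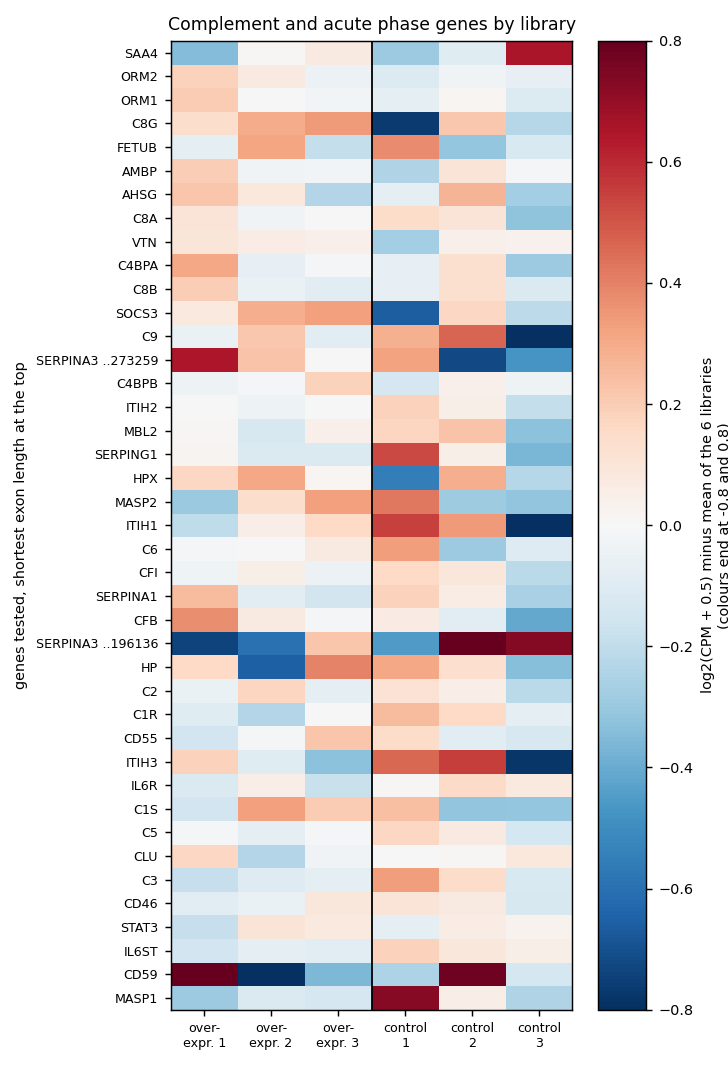
Deviation of each library from the mean of the 6 libraries, in log2(CPM + 0.5), for the 41 rows tested, ordered from the shortest exon length at the top to the longest at the bottom. The column of control 3 is mostly blue, that of control 1 is red for many rows in the lower part, and CD59 stands out in overexpression 1 and control 2.

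The unadjusted counts moved with the control library left out, and no row was called in any of these fits. Without control 3, 5 rows had an unadjusted p under 0.05 (MASP1, ITIH3, C3, SERPING1 and IL6ST, all lower with overexpression, background 6.97%) and 13 did not overlap (background 26.2%). C3 was then at -0.36 (edgeR, unadjusted p = 0.0078, adjusted p = 0.669) and MASP1 at -0.60. Without control 1, the rows were both of SERPINA3, C1S and CFB (background 4.27%), 7 did not overlap (background 20.7%), and MASP1 was at -0.09. Without control 2, they were HPX, SOCS3 and C8G, all higher with overexpression (background 7.36%), and 8 did not overlap (background 26.2%). C8G was then at 1.34, whereas without control 1 it was at 0.40. Without overexpression 1 the only one was CD59, at -0.81 (background 3.29%), and 6 did not overlap (background 20.6%). Without overexpression 2 there was none (background 4.38%) and 2 did not overlap (background 23%). Without overexpression 3 the only one was SERPINA3 ENSG00000196136 (background 4.33%) and 7 did not overlap (background 22.9%). SERPINA3 ENSG00000196136 was the only row named in more than 1 of these fits.

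The differences went with exon length. Over the 41 rows the log2 fold change and the merged exon length had a Spearman correlation of -0.501, and over 14979 genes tested it was -0.274. This is a correlation across genes that share the same 6 libraries and is given as a description. Per library, the deviation from the mean correlated with length at 0.333 in control 1 and -0.340 in overexpression 1 over the 41 rows, and at 0.256 and -0.342 over all genes. Of the 6 rows with the longest exons, MASP1, CD59, IL6ST and C3 were negative by 0.17 or more, with 13161, 10358, 9292 and 8328 bases, and STAT3 and CD46, with 8812 and 8708 bases, were at -0.0013 and -0.03. Of the 4 shortest, C8G, ORM1 and ORM2, with 1152, 901 and 760 bases, were positive, and SAA4, with 727 bases, was at -0.33.

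With the length trend of each library removed, which was tried once the values were known, no row had an unadjusted p under 0.05 (background 4.97%). IL6ST was then at -0.14 ± 0.07 (edgeR, unadjusted p = 0.076, adjusted p = 0.865), and its groups still did not overlap (1 of 41 rows, background 11.7%). MASP1 was at -0.29, C3 at -0.19, ORM1 at 0.03 and ORM2 at 0.05, all nearer 0, while C8G stayed at 0.70, SOCS3 at 0.53 and CFB at 0.28. SAA4, at -0.41, ITIH2, at -0.08, and STAT3, at 0.06, were further from 0. JAK1, CEBPB and CEBPA were at -0.23, 0.33 and 0.27, and RBP4 was at -0.51 (edgeR, adjusted p = 0.205). The part of length in these differences was not tested beyond this fit.

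**Figure D5:**
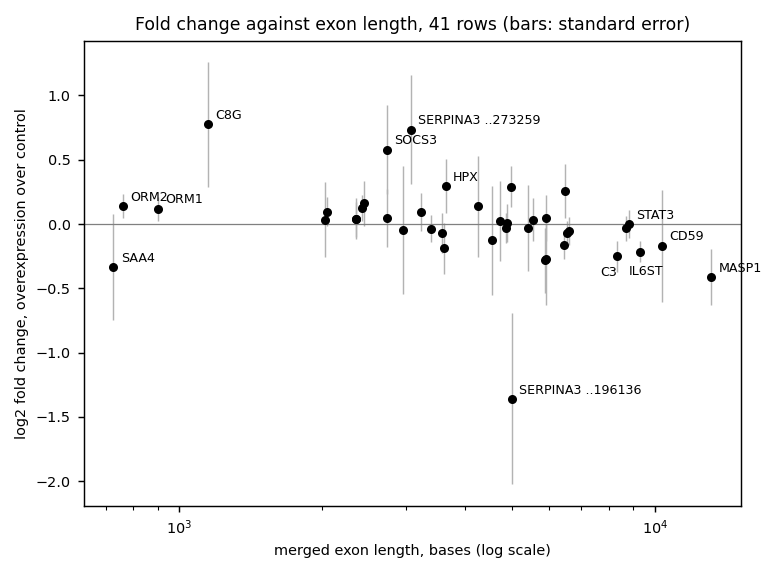
Log2 fold change of overexpression over control against merged exon length (log axis) for the 41 rows tested, with standard errors as bars. Of the rows with the longest exons, MASP1, CD59, IL6ST and C3 lie below 0 and STAT3 and CD46 lie close to it, and of the shortest, C8G, ORM1 and ORM2 lie above 0 and SAA4 lies at -0.33.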

How the data were processed

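The authors deposited read counts and FPKM values for each gene in each library, and the counts had not been normalized. The submitters' processing notes name TopHat2 2.0.9 and the build hg38. The counting tool, its handling of strand and of shared reads, and the annotation are not given in the sources used here. Merged exon lengths came from GENCODE 29, which held 98.5% of the gene IDs.

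Counts were tested with edgeR 4.0.16 under R 4.3.3 (filterByExpr minimum count 10, TMM, quasi-likelihood test, two-sided, group only) and adjusted by Benjamini-Hochberg over 15055 genes. The biological coefficient of variation was 16.1%. Exact permutation tests used log2(CPM + 0.5). The fits were also run on simulated counts, and no result given here rests on that run. Alternatives were other normalizations and filters, DESeq2 1.42.0, limma 3.58.1 on log2(FPKM + 1), a replicate block, each library left out and, added after seeing the data, summed counts of overlapping rows and removal of each library's trend with exon length (a spline with 5 degrees of freedom).

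Values of every library are given for genes with an unadjusted p under 0.05, the 3 highest and 3 lowest log2 fold changes and the 5 most abundant genes. They are also given for IL6R, IL6ST, STAT3, SOCS3, CRP, C3 and SAA1, and for the closely related pairs C4A and C4B, SAA1 and SAA2, and ORM1 and ORM2. CFB and CD59 were added after their values were seen. The genes and lists were chosen with earlier results of these data known. Groups came from the sample titles. Library pairs within a group gave a chi-square of 11.0 to 22.6 per degree of freedom, so none was a copy of another.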

Additional observations from a re-analysis of the deposited data

How the results depend on the processing

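No complement or acute phase gene was called under any of the 14 alternatives, and the median log2 fold change of these genes stayed between -0.05 and 0.06. The genes with an unadjusted p under 0.05, 1 in the fit reported, numbered 0 with limma on FPKM, 3 without a filter, 0 with the length trend removed, and 0 to 5 with 1 library left out. The 3 without a filter were C3, MASP1 and SERPINA3 ENSG00000196136, and IL6ST was not among them (edgeR, unadjusted p = 0.054). Those whose groups did not overlap numbered 2 with limma and 2 with upper-quartile normalization, and 2 to 13 with 1 library left out. The share over all genes was not counted for the limma, unfiltered and upper-quartile fits, so their counts cannot be read against a background. The backgrounds of the fits with 1 library left out or the length trend removed are given above. Over all genes, 4 were called higher and 2 lower. DESeq2 called 8 and 20, the fit without the length trend called 2 higher, and with 1 library left out 1 to 7 were called higher and 2 to 9 lower. The sign turned for 7 of the rows followed through the alternatives, none of them called. AHSG was at -0.0244 and SERPINA1 at -0.00069 with the length trend removed, HP at 0.0632 when summed with HPR, and SERPINA3 ENSG00000196136, at -1.36 alone, at 0.0370 when summed with the other row. With 1 library left out, AHSG ran from -0.0743 (without control 3) to 0.204, SERPINA1 from -0.125 (without overexpression 1) to 0.109, ITIH2 from -0.132 to 0.0527 (without control 1), SAA4 from -0.56 to 0.163 (without control 3) and STAT3 from -0.0554 to 0.0856. STAT3, at -0.0013 in the fit reported, was at 0.0159 with limma, 0.00142 with a mean of at least 50 counts, 0.00649 without a filter, 0.0144 with upper-quartile normalization and 0.0564 with the length trend removed. The cause was not tested.

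Over all genes tested, deviations from the group means of same-numbered libraries correlated at -0.04, -0.02 and -0.03. These correlations cannot decide whether same-numbered libraries shared a batch, which the labels do not state. With a replicate block 2 genes were called higher and 2 lower over all genes, and 0 of the complement and acute phase genes were called. Of the latter 2, CFB and SERPINA3 ENSG00000196136, had an unadjusted p under 0.05, and the share over all genes was not counted for this fit. Depth limits the 16 rows under 2 CPM, where only large differences could have been seen.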
